A study of Mus musculus with 12 samples.

Results

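The stretch described here is a run of 547 transcripts that lie next to each other in the deposited tables, from uc008vin.1 in data row 35699 to uc008wbm.1 in data row 36245, out of 55419 transcripts in all. The run came from an earlier scan of these data for neighbouring rows that change together in Chd8 mutant cells, and it was taken up for its low level in knockout neural progenitors. The members were thus chosen by the measured fold changes of mutant against wild-type cells, and those values are given below as a description, with no test of the run as a whole. What sets the order of the rows is not stated in the files, and the files do not pair the identifiers with gene names. None of the identifiers (0) matched the gene tables used here, so no gene, genome position or sequence is given, and Chd8 and the marker genes of the cell types were not checked.

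The study sequenced RNA of mouse embryonic stem cells (ESC) kept in 2i medium and of neural progenitor cells (NPC) made by differentiation, by a protocol the labels do not give, to ask how the dose of CHD8 affects transcription. Each cell type came as wild type (WT), CHD8+/- (heterozygous, HET) and CHD8-/- (knockout, KO), with 2 libraries in each of 6 groups and 12 libraries in all. The labels do not say how the alleles were made, how many lines carry each genotype, or whether replicate libraries stem from separate cultures. The p-values thus rest on a spread between libraries that may be technical. A group that rests on 1 line cannot be told apart from that line. The labels name no batch.

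CHD8 is a helicase of the chromodomain family that uses ATP to move or remodel nucleosomes, and it is found mainly at promoters of active genes. Loss of a single copy in people is a known strong risk factor for autism, which is why its dose is studied in early neural cells. The 2i medium holds inhibitors of a pair of kinases and keeps ESC in a naive pluripotent state, from which they can be led to NPC, dividing cells that give rise to neurons and glia.

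The libraries held between 9062447 and 14766212 estimated counts. Of the 547 members, 48 had no count in any library. Merging transcripts whose counts could not be told apart left 545, of which 322 (59.1%) had enough counts to be tested, against 54.3% of all other features. Of these 322, 200 had a mean of at least 2 CPM (read counts scaled to library size by the TMM method) over the 12 libraries and are called expressed members below; the other 122 were tested only. The median length of the expressed members was 3291 bases, against 2957 for the 19718 other expressed transcripts, and their median level was 12.9 CPM, against 10.9.

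The stretch stood lowest in KO NPC, and in each cell type its level went down from WT to HET to KO. The stretch level of a library is the median, over the 200 expressed members, of the log2 CPM relative to the mean of the same transcript over the 12 libraries, minus the same median over the other expressed transcripts. It was 0.32 and 0.28 in the WT ESC libraries, 0.17 and 0.16 in HET ESC, and -0.08 and -0.14 in KO ESC. In NPC it was 0.11 and 0.13 in WT, -0.02 and 0.03 in HET, and -0.48 and -0.51 in KO. No group overlapped another of the same cell type, and the gap between replicates was at most 0.05. Across cell types the order from the top was WT ESC, HET ESC, WT NPC, HET NPC, KO ESC and KO NPC. HET ESC and WT NPC were the closest neighbours, at 0.16 ± 0.01 and 0.12 ± 0.01 (SD, n = 2), and their libraries did not overlap.

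**Figure D1:**
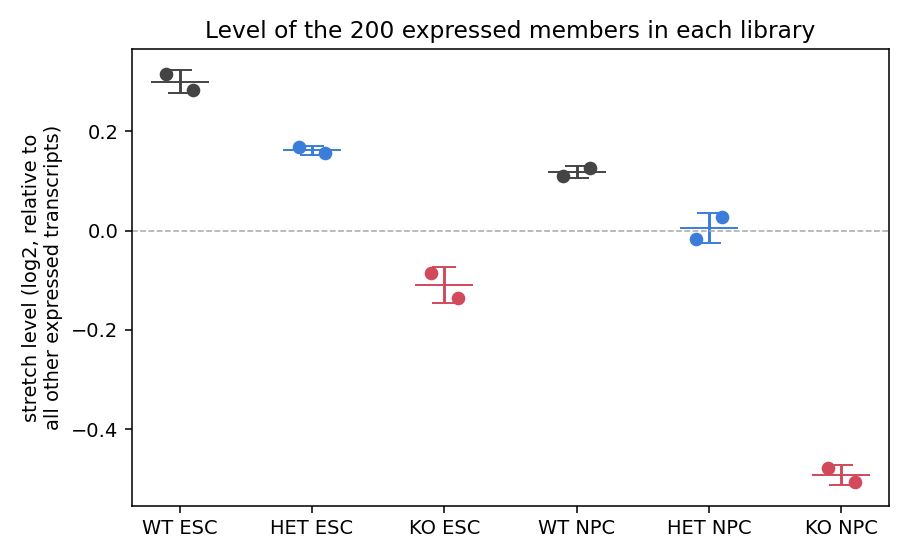
Stretch level (log2) of the 200 expressed members in each of the 12 libraries, by group; points are libraries, wide bars are means and whiskers are 1 SD (n = 2). The KO NPC libraries, at -0.48 and -0.51, lie below all others.

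As a difference from WT, the level was -0.61 ± 0.02 in KO NPC, or 0.655 of the WT level, and -0.41 ± 0.04 in KO ESC, or 0.752 of it. The SD of a difference is the root of the summed squares of the group SDs, each with n = 2. HET cells stood at -0.11 ± 0.03 in NPC and -0.14 ± 0.02 in ESC, which is 18.5% of the KO difference in NPC and 33.8% in ESC. KO minus HET was -0.50 ± 0.04 in NPC and -0.27 ± 0.04 in ESC. With all members counted and no filter on low levels, the differences were smaller, at -0.36 in KO NPC, -0.27 in KO ESC and -0.0917 in HET ESC, and KO minus HET was -0.26 in NPC and -0.18 in ESC. HET ESC was also closer to WT at 10 CPM or more (-0.0723) and with counts summed over runs of 5 rows (-0.0513), while HET NPC was -0.19 as a mean over members. The KO libraries had fewer counts than the WT libraries in NPC (9089955 and 10813941 against 12392099 and 13150215). In ESC they had more (14220515 and 14766212 against 9062447 and 9840544). The part of the depth in the NPC values was not tested. Fewer cells of a kind and less RNA per cell cannot be told apart in bulk RNA.

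The sum over all members showed the same order in NPC. The 547 members held 0.496% and 0.484% of all TPM (the deposited unit, scaled to transcript length and library size) in WT NPC, 0.388% and 0.401% in HET NPC, and 0.27% and 0.263% in KO NPC. In ESC the replicates of KO disagreed, at 0.499% and 0.348%, and overlapped the WT libraries at 0.467% and 0.518%. Abundant members weigh most in such a sum, and in KO ESC the 36 members of at least 50 CPM had a median log2 fold change of -0.14, closer to 0 than the rest.

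In KO NPC nearly the whole run was displaced, not a few transcripts of it. The median log2 fold change of the expressed members against WT was -0.65, with quartiles of -1.03 and -0.42, where all other expressed transcripts had a median of -0.01 and quartiles of -0.40 and 0.35. Of the 200, 183 (91.5%) lay below 0, against 50.7% of the others. Both KO libraries were under both WT libraries for 147 of the 200 (73.5%); the background among all 19918 expressed transcripts was 27.2%. Both KO libraries were above both WT libraries for 5 members (2.5%), where the background was 26.5%. KO NPC, HET NPC and WT NPC followed each other without overlap, KO lowest, in 37 members (18.5%), where the background was 4.08%.

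Few single members passed the test in KO NPC. With edgeR's quasi-likelihood test and Benjamini-Hochberg adjustment over 30021 transcripts, 4 of the 322 tested members were lower at an adjusted p under 0.05 and none (0) was higher, where the background was 0.137% lower and 0.0766% higher. At an unadjusted p under 0.05, 92 members (28.6%) were lower and 1 was higher, where the background was 6.8% and 5.85%. The 4 calls were uc008viw.2, uc008vmo.2, uc008vvb.2 and uc008vwl.1; uc008viw.2 and uc008vvb.2 fall outside the rule for named transcripts and are named here with their values seen. None of the calls held when any 1 of the WT NPC or KO NPC libraries was left out. Such a fit leaves 1 library in a group, and few or no transcripts of the whole table were called in it. With any 1 of these libraries left out, the stretch level in KO NPC differed from WT by -0.61 to -0.63. DESeq2 called 47 members lower and 1 higher (19.1% and 0.407% of those with an adjusted p, background 3.29% and 3.1%). limma on log2(TPM + 1) called 19 lower and none (0) higher (5.9% lower, background 1.04% lower and 0.403% higher). Limited to transcripts of 10 CPM or more on average, edgeR called 18 lower and none (0) higher (16.2% lower, background 2.2% lower and 1.46% higher).

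In KO ESC the members were lower too, but with a wider spread. Their median log2 fold change against WT was -0.28 with quartiles of -0.78 and 0.08, where the others had a median of 0.03. Of the 200, 141 (70.5%) lay below 0, against 47.6% of the others. Both KO libraries were under both WT libraries for 85 members (42.5%), where the background was 22.6%. edgeR called 10 of the 322 lower at an adjusted p under 0.05 and none (0) higher, where the background was 0.49% lower and 0.716% higher, and the falls of the 10 lay between -0.81 and -1.59 on the log2 scale. At an unadjusted p under 0.05, 54 were lower (background 6.42%) and 4 higher (background 7.87%). Few or no members were called when any 1 of the WT ESC or KO ESC libraries was left out, which leaves 1 library in a group. Without WT ESC replicate 1 the share of members called was under the background. In the other such fits the whole table had fewer calls than with all libraries. With any 1 of these libraries left out, the stretch level in KO ESC differed from WT by -0.39 to -0.43. DESeq2 called 22 lower and 1 higher (8.15% and 0.37%, background 3.3% and 4.24%), and limma called 3 lower and none (0) higher (0.932% lower, background 0.376% lower and 0.366% higher). Calls of the KO comparisons, which share no library, met in 2 members, uc008viw.2 and uc008vmo.2, or 20.0% of the ESC calls and 50% of the NPC calls. Both comparisons served in choosing the run, and the overlap over all tested transcripts is not given here, so this is a description only.

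HET cells lay under WT by less than KO cells did. The median log2 fold change of the expressed members was -0.08 in HET ESC and -0.18 in HET NPC, where the others had 0.01 and -0.01, and 62.0% and 68.0% of the members lay below 0. Both HET libraries were under both WT libraries for 51 members in ESC (25.5%, background 18.6%) and for 66 in NPC (33.0%, background 22.7%). edgeR called none (0) of the members in HET ESC or HET NPC at an adjusted p under 0.05, where the background was 0.0133% lower and 0.02% higher in ESC and 0.0% lower and 0.00999% higher in NPC. At an unadjusted p under 0.05, 16 members were lower in HET ESC and 19 in HET NPC (background 3.82% and 3.87%), 6 and 4 were higher (background 4.85% and 4.03%). DESeq2 called 1 member in HET ESC (0.37%, background 2.31% in either direction) and 6 in HET NPC (2.44%, background 2.34%), and limma none (0) in either (background 0.05% and 0.11%). The HET and KO comparisons of a cell type share the WT libraries. KO against HET does not use WT, but it uses the HET and KO libraries that served in choosing the run, so its values are a description. It gave a median of -0.48 in NPC, with 176 of 200 members below 0, and -0.21 in ESC, with 128 below 0. In NPC both KO libraries were under both HET libraries for 114 members (57.0%, background 21.5%), and in ESC for 82 (41.0%, background 21.1%), with 26 the other way (13.0%, background 23.6%). edgeR called none (0) of the members in KO against HET NPC (background 0.00666% lower), with 65 lower and 2 higher at an unadjusted p under 0.05 (background 4.37% and 3.01%). There DESeq2 called 15 (5.24%, background 1.48%) and limma none (0, background 0.02%). In KO against HET ESC it also called none (0), with 38 lower and 4 higher at an unadjusted p under 0.05 (background 4.49% and 4.81%), while DESeq2 called 14 (5.0%, background 2.89%) and limma none (0, background 0.00999%).

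**Figure D2:**
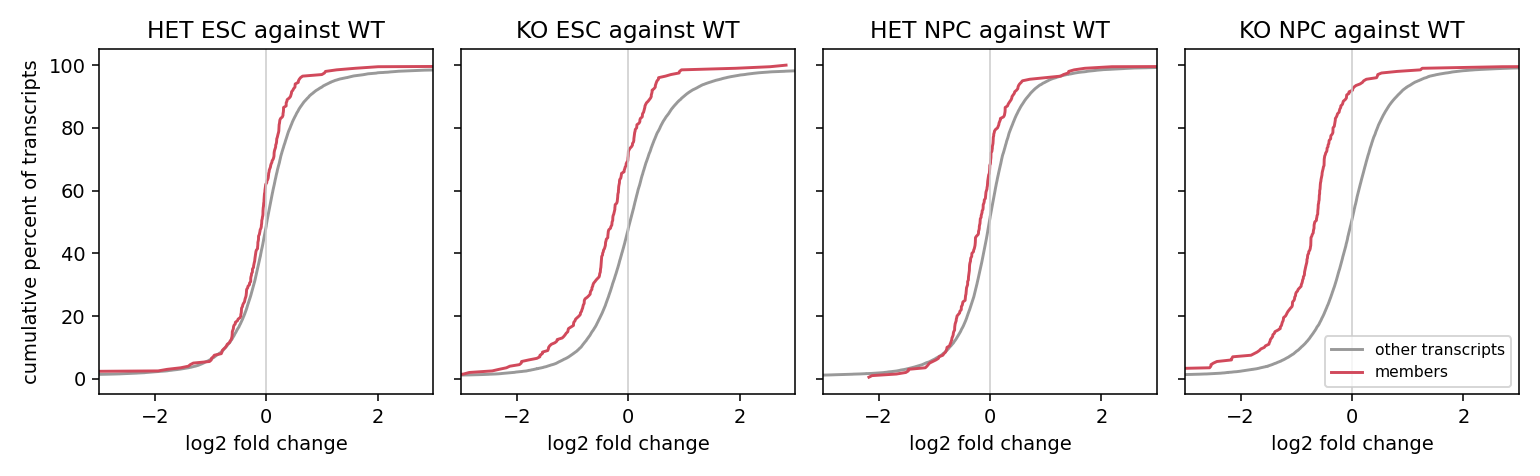
Cumulative percent of transcripts (vertical) by log2 fold change against WT (horizontal, drawn from -3 to 3) for the 200 expressed members and the 19718 other expressed transcripts, in the 4 mutant groups. The member curve is displaced to the left along its whole middle range in KO NPC, where 91.5% lie below 0, and by less in KO ESC, where 70.5% do.

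Over the whole run the KO difference was larger in NPC than in ESC. edgeR called 10 members lower in ESC (3.11%, background 0.49%) and 4 in NPC (1.24%, background 0.137%). With no filter it called 4 and 3 (background 0.181% and 0.0781%). The order turned with DESeq2 (22 in ESC and 47 in NPC, background 3.3% and 3.29%) and limma (3 and 19, background 0.376% and 1.04%). It also turned in edgeR at 10 CPM or more (10 and 18, background 3.11% and 2.2%). The stretch level differed from WT by a further -0.20 ± 0.05 (log2) in KO NPC, so the ESC difference was 67.2% of that in NPC. With all members counted and no filter on low levels this gap was -0.0928. Taken transcript by transcript, the KO difference in NPC minus that in ESC had a median of -0.41 among the members, against -0.05 among the others, and 146 of 200 (73.0%) were below 0, against 53.0%. The first of these values compares medians of libraries, and the second is a median of differences. In edgeR's interaction test none (0) of the 322 members passed at an adjusted p under 0.05 (background 0.00333% lower), while 42 were lower and 10 higher at an unadjusted p under 0.05 (background 5.43% and 3.73%). DESeq2 called 4 (1.48%, background 2.32%) and limma none (0, background 0.00666%). For HET the gap in level was 0.03 ± 0.04, within its SD, and its sign turned under other settings, down to -0.0896 with counts summed over runs of 5 rows. edgeR's interaction for HET also called none (0) of the members, with 10 lower and 6 higher at an unadjusted p under 0.05 (background 2.92% and 2.3%). DESeq2 called 1 (0.334%, background 0.518%) and limma none (0, background 0.00333%), and the edgeR median was -0.10 among the members and -0.03 among the others.

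Of the 200 members, 126 were under WT in both KO cell types, 57 in NPC alone, 15 in ESC alone and 2 in neither. For the other expressed transcripts the shares were 29.8%, 20.9%, 17.9% and 31.5%, against 63.0%, 28.5%, 7.5% and 1.0% of the members. Across the members the ESC and NPC fold changes of KO correlated at r = 0.275 (Pearson) and rho = 0.088 (Spearman), and across the others at 0.175 and 0.28. Transcripts are not independent replicates, and neighbours can share reads, so these are descriptions of the libraries.

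The gap between the cell types was uneven along the run. Cut into 8 consecutive segments of 25 expressed members, the median log2 fold change in KO NPC, relative to the other transcripts, lay between -0.84 and -0.57 in all 8. In KO ESC it was -0.61 and -0.68 in segments 1 and 2 and -0.34 in segment 3, then -0.03 and -0.08 in segments 4 and 5, and -0.23, -0.51 and -0.38 in segments 6, 7 and 8. Segments 4 and 5 (rows 35909 to 36036, 50 expressed members) were picked out after this profile was seen, and their values carry no test. In them 26 of 50 members were under WT in KO ESC and 48 of 50 in KO NPC, while in the other 6 segments the numbers were 115 and 135 of 150. Both KO ESC libraries were under both WT ESC libraries for 9 of the 50 and for 76 of the 150, where the background was 22.6%. Over their 50 members, the level of segments 4 and 5 differed from WT by 0.02 ± 0.12 in KO ESC and by -0.67 ± 0.20 in KO NPC. For single segments, the level in KO ESC differed from WT by -0.05 in segment 4 and -0.22 in segment 5. It differed by -0.20 in segment 7, and by -0.62 to -0.31 in segments 1, 2, 3, 6 and 8. By level, segment 5 was thus not set apart from segment 7. HET NPC also had its lowest segment medians in segments 4 and 5, at -0.35 and -0.39. The level of segments 4 and 5 differed from WT by -0.40 ± 0.44 in HET NPC, however, within its SD. Without these segments, the level differed from WT by -0.42 ± 0.05 in KO ESC and by -0.63 ± 0.03 in KO NPC. The further difference in NPC was then still -0.20 ± 0.06.

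**Figure D3:**
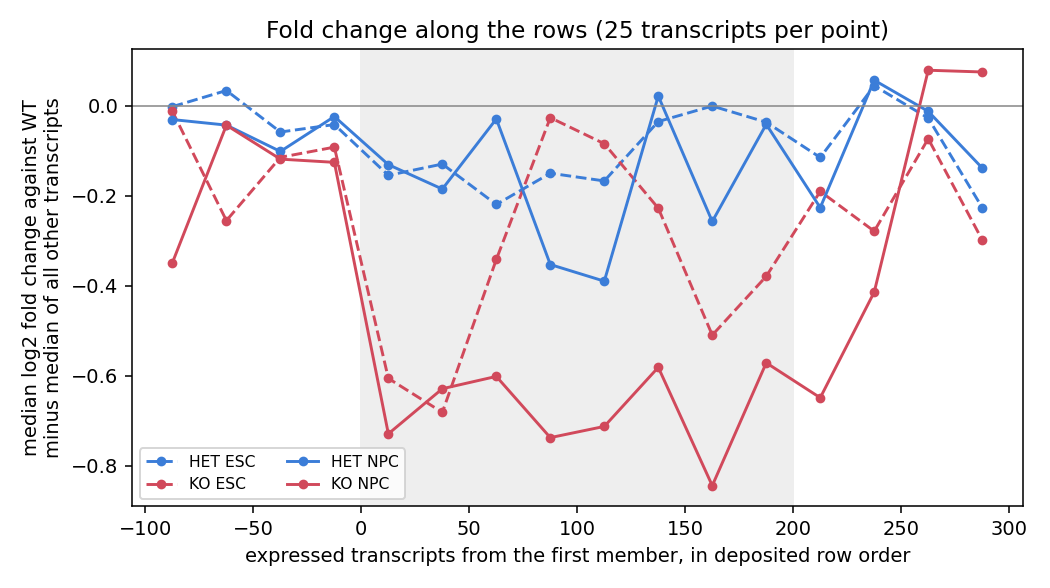
Median log2 fold change against WT, minus the median of all other expressed transcripts, in consecutive groups of 25 expressed transcripts along the deposited rows; the shaded range holds the 200 expressed members, with 100 expressed transcripts drawn on either side. KO NPC stays between -0.84 and -0.57 throughout the shaded range, while KO ESC reaches -0.03 and -0.08 near its middle.

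**Figure D4:**
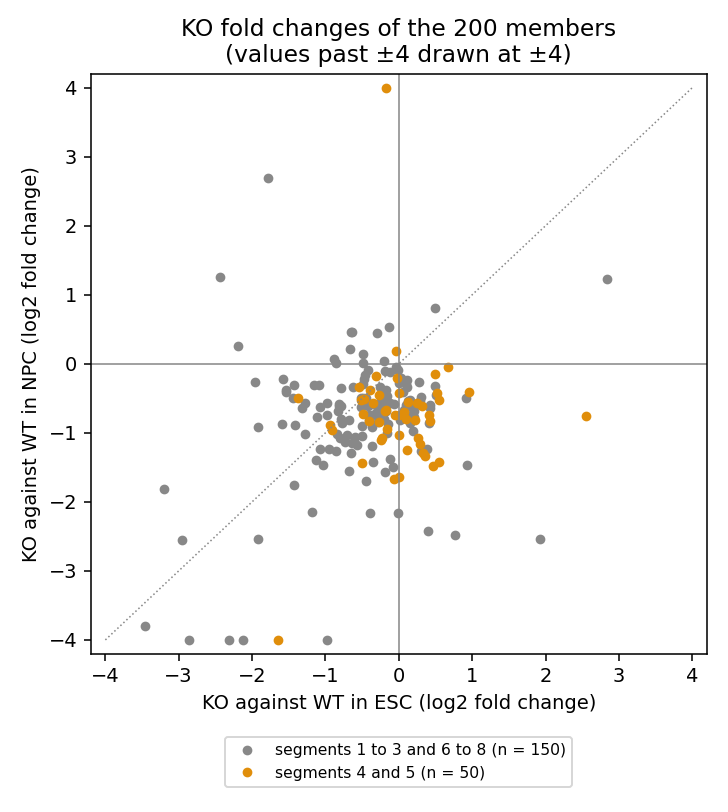
KO against WT log2 fold change in ESC (horizontal) and NPC (vertical) of the 200 expressed members, with segments 4 and 5 in a second colour; the dotted line marks equal values. Most points lie under the horizontal zero line (183 of 200), and those of segments 4 and 5 lie on both sides of the vertical zero line (26 of 50 to its left).

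The stretch began sharply in the rows and ended less so. On the same scale, the 25 expressed transcripts just before the first member stood at -0.13 in KO NPC and -0.09 in KO ESC, and the first 25 members at -0.73 and -0.61. Further before the run, a group of 25 in rows 35505 to 35550 stood at -0.35 in KO NPC and -0.01 in KO ESC. At the other end the last 25 members stood at -0.57 in KO NPC and -0.38 in KO ESC. Past the last member, the next groups of 25 still stood at -0.65 and -0.41 in KO NPC, and the groups after them stood at 0.08 and 0.08. The lower level in KO NPC thus ran about 50 expressed transcripts beyond the last row of the stretch, to row 36380. None of those transcripts (0) is counted as a member.

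Set among the rest of the rows, KO NPC was where the run was extreme. When all expressed transcripts were cut into 199 blocks of 100 that keep the row order, the members filled 2 blocks, with medians of -0.67 and -0.61 in KO NPC. The other 197 blocks ran from -0.54 to 1.01 there, so these were the lowest in the table. In KO ESC the same blocks stood at -0.33 and -0.28, ranks 14 and 16 from the bottom, and the lowest block stood at -0.69. In HET NPC they had ranks 4 and 6, and in HET ESC ranks 5 and 66. For the KO difference in NPC minus that in ESC they stood at -0.35 and -0.37, ranks 5 and 3. The lowest block stood at -0.43 in that gap. These ranks describe the scan that chose the run. The blocks were aligned to the first member, while other displaced runs were cut wherever the grid fell.

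The lower level in KO NPC was found in each class of abundance and length. In members of 2 to 10 CPM on average the median log2 fold change was -0.74 in KO NPC, with 76 of 89 below 0. Those of 10 to 50 CPM had -0.63, with 72 of 75 below 0, and those of at least 50 CPM had -0.59, with 35 of 36 below 0. Even the 122 tested members under 2 CPM had -0.39, with 84 below 0, where other transcripts of that level had -0.04. In KO ESC the median came closer to 0 with abundance, from -0.45 at 2 to 10 CPM through -0.29 to -0.14 at 50 CPM or more, where 19 of 36 lay below 0. By length, the KO NPC median was -0.60 in the 10 expressed members under 1000 bases, -0.72 in the 79 from 1000 to 3000 bases and -0.61 in the 111 longer ones, with 10, 76 and 97 below 0.

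Differentiation of WT cells moved some of the members strongly in both directions. This comparison was not used to choose the run, though its WT libraries also served in the mutant comparisons. Between WT NPC and WT ESC, edgeR called 36 of 322 members lower in NPC (11.2%, background 5.33%) and 15 higher (4.66%, background 6.83%) at an adjusted p under 0.05. The median log2 fold change of the expressed members was -0.06, against 0.01 for the others. The stretch level, a median by library, differed by -0.18 ± 0.03 in WT NPC, and by -0.12 with no filter on low levels, -0.34 as a mean over members and -0.11 with counts summed over runs of 5 rows. Counts rested on single libraries: without WT NPC replicate 1 there were 14 lower and 10 higher (6.84% in all, background 5.69%), and without WT NPC replicate 2 there were 8 lower and 11 higher (5.43%, background 4.81%). The split also turned with limma on log2(TPM + 1), which is not rescaled between libraries and called 29 lower and 52 higher (25.2% in all, background 20.9%, of which 2.92% lower and 18.0% higher). DESeq2 called 51 lower and 24 higher (23.9%, background 19.0%). In HET cells 34 members were called lower and 11 higher in NPC (background 5.16% and 6.3%), and in KO cells 47 and 10 (background 6.42% and 6.59%).

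The members that were lower in WT NPC gathered in the middle of the run. Of the 35 expressed members called lower, 21 lay in segments 4 and 5. Segment 4 (rows 35909 to 35991) had a median of -1.57 in WT NPC against WT ESC, relative to the other transcripts. The median of segment 5 was -0.01. The KO difference in NPC was of like size whichever way a member went in differentiation. Its median was -0.68 in the 35 called lower, -0.74 in the 13 expressed members called higher and -0.62 in the 152 not called, with 33, 13 and 137 below 0. In KO ESC the medians of the same sets were -0.17, -0.26 and -0.35.

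Individual members show how this looks in the libraries. The first member, uc008vin.1, did not follow the run: it had 3.57 and 6.88 CPM in WT NPC and 7.38 and 7.73 CPM in KO NPC. The last member, uc008wbm.1, had 16.8 and 20.1 CPM in WT NPC, 15.4 and 13.7 in HET NPC and 7.98 and 10.4 in KO NPC. All KO NPC values of uc008wbm.1 were thus under those of HET and WT, but it did not pass the test (log2 fold change -1.002, SE 0.20, edgeR adjusted p = 0.0985). Its ESC libraries overlapped between genotypes, at 14.3 to 19.8 CPM.

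The member with the most reads, uc008wah.1, also had the highest mean TPM of the tested members (467.8). It had 955.5 and 880.3 CPM in WT ESC, 919.8 and 840.8 in HET ESC, and 623.1 and 727.1 in KO ESC. In NPC it stood at 449.7 and 505.7 CPM in WT, 491.4 and 440.4 in HET, and 328.7 and 347.1 in KO. Both KO groups lay under their HET and WT groups, without passing the test (log2 fold change -0.44, SE 0.12, in ESC and -0.50, SE 0.12, in NPC, edgeR adjusted p = 0.136 and 0.139). In WT cells uc008wah.1 was lower in NPC than in ESC (log2 fold change -0.94, SE 0.12, edgeR adjusted p = 0.00254). KO therefore stood about as far under WT in NPC as in ESC for this transcript.

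The long transcripts uc008vmm.2 (15901 bases) and uc008vjc.2 (14201 bases) ranked the third and the fourth by mean CPM. uc008vmm.2 had 382.7 and 398.9 CPM in WT NPC, 358.3 and 330.9 in HET NPC, and 249.9 and 232.7 in KO NPC. In ESC it had 440.9 and 369.3 CPM in WT, 353.9 and 351.7 in HET, and 356.0 and 312.6 in KO, so HET and KO overlapped. uc008vjc.2 had 592.0 and 670.4 CPM in WT NPC, 443.8 and 323.4 in HET NPC, and 274.8 and 283.3 in KO NPC. The HET values of uc008vjc.2 lay between those of WT and KO with no overlap. In ESC uc008vjc.2 had 272.0 and 263.6 CPM in WT, 220.4 and 270.6 in HET and 198.7 and 160.7 in KO, so HET and WT overlapped. Neither passed the test in KO NPC (edgeR adjusted p = 0.0667 for uc008vmm.2 and 0.0566 for uc008vjc.2).

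Of the called members in KO NPC, uc008vmo.2 was the clearest case of an ordered series. It had 32.3 and 34.5 CPM in WT NPC, 22.4 and 20.8 in HET NPC, and 14.2 and 14.1 in KO NPC. In ESC it had 18.3 and 15.9 CPM in WT, 13.5 and 11.9 in HET, and 8.155 and 7.998 in KO. The 3 genotypes of uc008vmo.2 did not overlap in either cell type, and KO fell in both (log2 fold change -1.24, SE 0.15, edgeR adjusted p = 0.0417 in NPC, and -1.08, SE 0.16, edgeR adjusted p = 0.0307 in ESC). uc008vwl.1 had 40.4 and 42.6 CPM in WT NPC, 27.1 and 33.7 in HET NPC, and 17.8 and 18.5 in KO NPC. It fell in KO NPC (log2 fold change -1.19, SE 0.14, edgeR adjusted p = 0.0417) but not past the threshold in KO ESC (-0.36, SE 0.14, edgeR adjusted p = 0.296), where it had 22.8 and 26.1 CPM against 31.1 and 31.7 in WT. The KO NPC calls of uc008vmo.2 and uc008vwl.1 each held in 4 of 9 alternatives, with adjusted p up to 0.23. The interaction of uc008vwl.1 between cell types did not pass either (log2 difference -0.83, SE 0.20, edgeR adjusted p = 0.262).

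uc008viw.2 had 117.1 and 117.2 CPM in WT NPC, 90.8 and 86.4 in HET NPC, and 53.2 and 62.9 in KO NPC. The order repeated in ESC without overlap, at 98.6 and 92.4 CPM in WT, 86.2 and 72.7 in HET, and 58.8 and 48.0 in KO. uc008vvb.2 had 3.50 and 3.07 CPM in WT NPC and no count in either KO NPC library, where a count of 0 allows up to 0.299 and 0.26 CPM (3 counts, counting error only). HET NPC did not lie between them for uc008vvb.2, at 4.33 and 4.98 CPM. Estimated counts can move between isoforms, so a 0 can mean that the reads were given to another transcript.

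The largest falls among the calls of KO ESC were in uc008vni.2 and uc008vyq.2. uc008vni.2 had 22.3 and 27.5 CPM in WT ESC, 13.8 and 18.8 in HET ESC, and 7.62 and 8.95 in KO ESC (log2 fold change -1.59, SE 0.28, edgeR adjusted p = 0.043). In NPC it had 14.3 and 9.15 CPM in WT and 6.78 and 5.99 in KO. uc008vyq.2 had 11.1 and 14.1 CPM in WT ESC, 10.3 and 10.6 in HET ESC, and 5.15 and 4.09 in KO ESC (log2 fold change -1.45, SE 0.26, edgeR adjusted p = 0.0476). These calls held in few of the alternatives, 2 of 9 for uc008vni.2 and 1 of 8 for uc008vyq.2, with adjusted p up to 0.192 and 0.212. In NPC uc008vyq.2 had 7.06 and 7.48 CPM in WT and 4.99 and 5.30 in KO. Both members had the larger KO difference in ESC, but they were named for their large falls there, so this is a description only. Neither interaction passed (edgeR adjusted p = 0.637 for uc008vni.2 and 0.492 for uc008vyq.2).

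**Figure D5:**
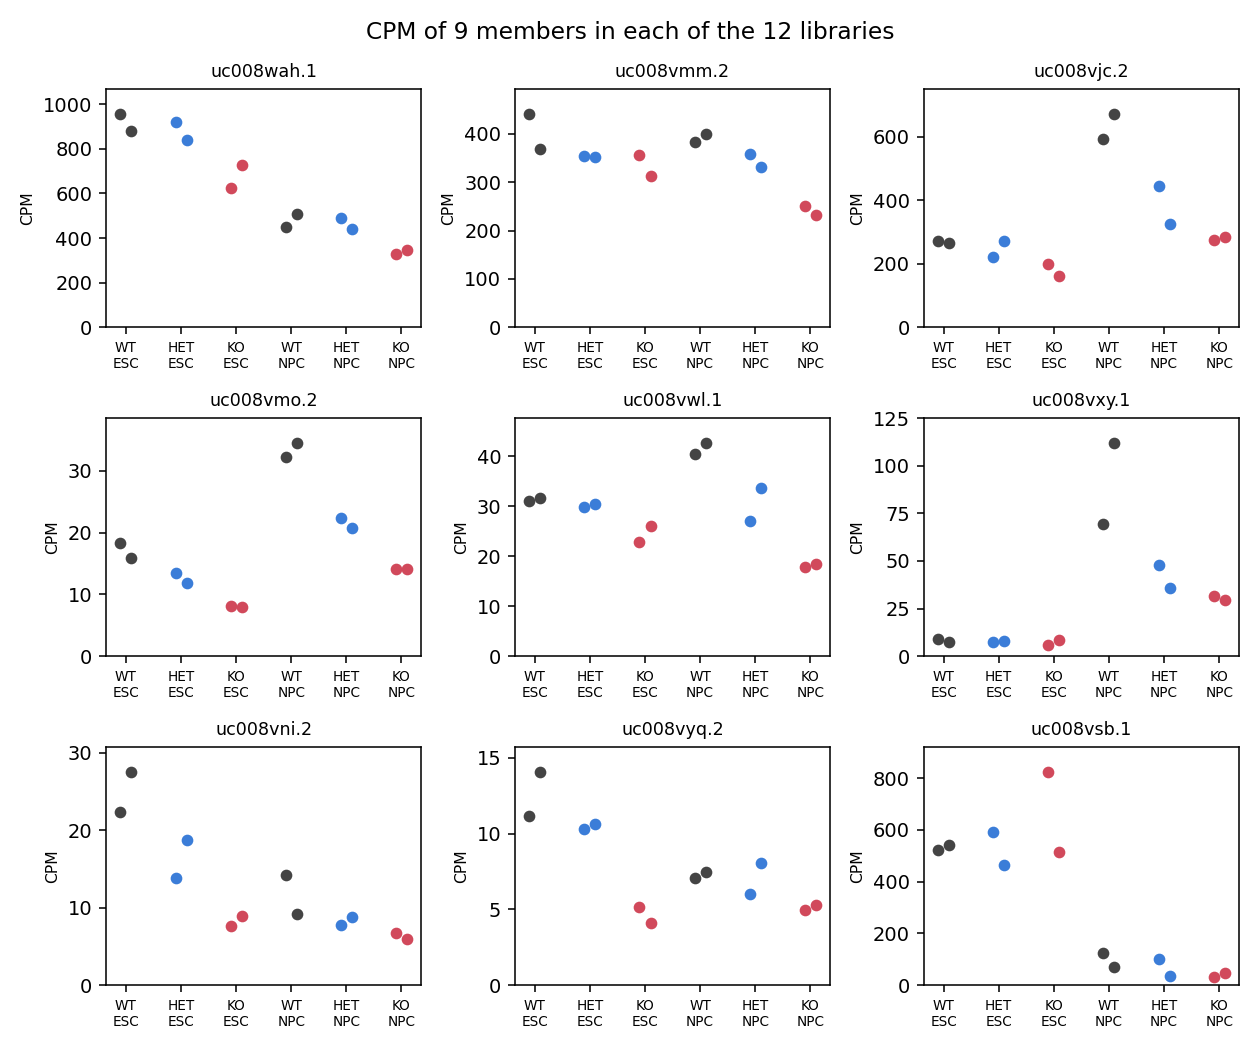
CPM of 9 members in each of the 12 libraries (points; panels differ in scale and start at 0). In all 9 panels both KO NPC libraries lie under both WT NPC libraries, and uc008vsb.1 shows the steep drop from ESC to NPC of segment 4. The panels are a selection of the named members. Among those not drawn, uc008vin.1, uc008vkj.2 and uc008vtu.2 did not have KO NPC under WT NPC.

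Of the 4 members named for a rise in differentiation, 3 were lower in both KO NPC libraries than in both WT NPC libraries. So were 73.5% of the expressed members (background 27.2%). uc008vxy.1 and uc008vxg.1 were named for a rise into WT NPC, the libraries that KO NPC is compared with here. The count of 3 is thus a description only. uc008vxy.1 rose from 8.78 and 7.65 CPM in WT ESC to 69.3 and 111.8 in WT NPC (log2 fold change 3.46, SE 0.29, edgeR adjusted p = 0.000504). It reached 47.8 and 36.0 CPM in HET NPC and 31.5 and 29.3 in KO NPC, while the ESC libraries of all genotypes lay between 6.001 and 8.78 CPM. The KO NPC libraries of uc008vxy.1 were thus under the HET libraries, and those under WT, though KO against WT in NPC did not pass (log2 fold change -1.57, SE 0.26, edgeR adjusted p = 0.0667). uc008vxg.1 rose from 2.85 and 3.10 to 22.6 and 10.4 CPM in WT cells (edgeR adjusted p = 0.0346, a call that held in 4 of 8 alternatives), with 4.89 and 9.12 in KO NPC. uc008vkd.1 rose in KO cells from 6.46 and 13.1 to 38.7 and 29.7 CPM (edgeR adjusted p = 0.00863), against 58.2 and 55.8 in WT NPC. uc008vkj.2, which rose in HET cells from 5.93 and 3.77 to 20.3 and 28.9 CPM (edgeR adjusted p = 0.00837), did not follow the run: WT NPC had 20.1 and 28.9 CPM and KO NPC 20.2 and 19.0.

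Neighbours in the middle of the run lost most of their level in NPC. uc008vsi.3 (row 35983) fell from 711.5 and 722.9 CPM in WT ESC to 135.0 and 70.3 in WT NPC (log2 fold change -2.80, SE 0.48, edgeR adjusted p = 0.00895). In KO it had 1161.1 and 750.4 CPM in ESC, above both WT libraries, and 52.6 and 69.8 in NPC, below both. uc008vsb.1 (row 35975) fell in KO cells from 822.6 and 513.1 to 32.8 and 46.9 CPM (log2 fold change -4.07, SE 0.55, edgeR adjusted p = 0.00297). uc008vsk.2 (row 35985) fell in HET cells from 207.1 and 162.9 to 36.6 and 9.23 CPM (log2 fold change -3.01, SE 0.58, edgeR adjusted p = 0.0141). Whether these 3 neighbours share reads was not tested. KO ESC replicate 1 was the highest library for each of them.

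Members of lower level in the same region were at 0 in some libraries. uc008vtu.2 had 14.9 and 15.1 CPM in WT ESC and no count in either WT NPC library, where a count of 0 allows up to 0.21 and 0.2 CPM (edgeR adjusted p = 0.0422 for WT NPC against WT ESC, a call that held in 3 of 8 alternatives). It had 5.84 and 16.1 CPM in HET NPC, and 0 and 8.59 in KO NPC, so the KO NPC libraries disagreed. uc008vuf.1 fell in KO cells from 8.62 and 12.1 CPM in ESC to 0 and 0.868 in NPC (edgeR adjusted p = 0.0497, a call that held in 3 of 8 alternatives), against 1.54 and 3.54 in WT NPC.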

How the data were processed

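Per the submitters' processing notes, cutadapt 1.16 and kallisto were used with build mm9, with no kallisto version stated. Libraries were stranded, from total RNA depleted of ribosomal RNA, per the labels' protocols. The deposited files give estimated counts (expected counts shared among compatible transcripts) and TPM values per transcript, per the file headers. The members and lists were chosen with earlier results of these data known.

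Transcripts with estimated counts equal to 2 decimals in all libraries and a total of at least 10 were merged (252 transcripts in 99 sets). After rounding, filterByExpr (minimum count 10) set which transcripts were tested, and TMM-scaled counts were modelled with edgeR 4.0.16 (R 4.3.3, glmQLFit, robust) in 1 model with a mean per group over 12 libraries. Tests were two-sided with Benjamini-Hochberg adjustment over 30021 transcripts at 0.05. The code was tested on simulated data. Standard errors are the size of a log2 fold change over the root of its F statistic. Log2 CPM used a prior count of 2. Alternatives were DESeq2 1.42.0, limma 3.58.1 on log2(TPM + 1), other filters, a replicate block and leaving out libraries. Named members were the first and last, the 4 with most reads, and per comparison at most 2 rises and 2 falls that passed, with a mean CPM of at least 5 and no overlap. Same-numbered replicates did not deviate together (r from -0.078 to 0.082), so the numbers do not pair libraries.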

Additional observations from a re-analysis of the deposited data

Results flagged for a closer look

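uc008vsi.3 was higher in both KO ESC libraries than in both WT ESC libraries and lower in both KO NPC libraries than in both WT NPC libraries. The difference between the cell types was -1.16 (log2, SE 0.64) and did not pass the interaction test (edgeR adjusted p = 0.647). uc008vuf.1 showed the same opposite order, with a difference of -3.25 (log2, SE 1.55, edgeR adjusted p = 0.586); it had no count in KO NPC replicate 1, so this fitted value depends on the prior count and is no bound.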

How the results depend on the processing

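The 8 shifts and level differences other than the HET gap between cell types kept their sign under each alternative, but several moved by more than 1 SD, and the HET gap (0.03) turned negative under several; the cause was not tested. Alternatives for the HET gap and for KO against HET ESC and NPC were added after seeing the data. With no filter on low counts they were -0.0917 (HET ESC), -0.27 (KO ESC), -0.36 (KO NPC), -0.0928 (KO in NPC minus KO in ESC), -0.12 (WT NPC minus WT ESC), -0.18 (KO against HET ESC) and -0.26 (KO against HET NPC). At 10 CPM or more, HET ESC, KO ESC and KO NPC were -0.0723, -0.36 and -0.57, and the HET gap -0.0216. As means over members, HET ESC, KO ESC, HET NPC and KO NPC were -0.18, -0.46, -0.19 and -0.75, the KO gap between cell types -0.29, the WT difference -0.34 and KO against HET NPC -0.56. With TMM scaling and no centring on the other transcripts, HET ESC was -0.11, the KO gap -0.26, the HET gap -0.021 and the WT difference -0.14, or -0.15 with DESeq2 size factors. On log2(TPM + 1), HET ESC, KO ESC and KO NPC were -0.11, -0.33 and -0.50, and KO against HET -0.22 in ESC and -0.41 in NPC. Without the first and last 54 rows the WT difference was -0.25. With counts summed over runs of 5 rows, chosen after seeing the data, HET ESC was -0.0513, KO NPC -0.66, the WT difference -0.11, KO against HET ESC -0.36 and the HET gap -0.0896.

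Leaving out 1 library at a time gave -0.10 to -0.13 for HET ESC, -0.19 to -0.25 for the KO gap, -0.16 to -0.19 for the WT difference, -0.24 to -0.33 and -0.47 to -0.53 for KO against HET ESC and NPC, and -0.0268 to 0.0357 for the HET gap. The same gave 0 to 1 members called in KO ESC, 0 in KO NPC (0 for each library left out) and 19 to 35 in WT NPC against WT ESC. DESeq2 called 1 (HET ESC, where 2.31% of all transcripts with an adjusted p were called), 23 (KO ESC, 7.55%), 6 (HET NPC, 2.34%), 48 (KO NPC, 6.39%), 14 (KO against HET ESC, 2.89%), 15 (KO against HET NPC, 1.48%), 4 (KO interaction, 2.32%) and 1 (HET interaction, 0.518%). limma called 3 in KO ESC (0.743%), 19 in KO NPC (1.44%) and 81 in WT NPC against WT ESC (20.9%). edgeR called 4 in KO ESC with no filter (0.816%, background 0.491%) and 18 in KO NPC at 10 CPM or more (16.2%, background 3.66%). With a replicate block edgeR called 0 in KO ESC (background 0.0333%) and 0 in KO NPC (background 0.0%). In WT NPC against WT ESC it called 26 (8.07%, background 7.02%). The labels share only a number across groups, and the correlations of same-numbered deviations do not pair the libraries. The filter on low counts left 223 of the 545 members untested.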
